A study of Mus musculus with 47 samples.

Results

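The 10 nuclear genes for the copying and transcription of mitochondrial DNA (mtDNA) are described here, among 56748 genes counted in bulk RNA sequencing of B78-D14 cells. They were taken by name, without use of their measured values: Polg, Polg2, Twnk, Ssbp1 and Mgme1 for replication, and Tfam, Polrmt, Tfb1m, Tfb2m and Tefm for transcription. B78-D14 is a mouse melanoma line in which the study truncated the mtDNA-encoded complex I subunit Mt-Nd5 with base editors, at position 11,944 or 12,436 of the mtDNA. Cultured cells with m.11,944G>A at a heteroplasmy of 60% (m.11,944 60% cells) and wild-type control cells were compared with 4 cultures each. Tumors had been grown subcutaneously from m.12,436 60%, m.12,436 40% or control cells in male C57BL/6 mice, and 7, 7 and 4 tumors were compared. The study's methods put the mice at about 8 weeks of age at injection, whereas its reporting summary gives an older range. All groups share the line's origin and no group received a drug treatment, the edited cells are populations of this single line, and a tumor also holds cells of the host.

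The count table names its columns by codes and numbers, not by the samples' titles: the m.11,944 60% cultures were assigned through a heading in the study's source data, and the m.12,436 tumors through its use of high and low for 60% and 40% and through their numbering. Control cultures and control tumors were assigned by their numbers. The group labels thus rest on this reading of the column names. The labels give only a number within a group, so the p values measure the spread between these samples, which may be technical for cultures. Libraries held between 16475735 and 36173502 counts. The lowest count of a factor in any library was 85, for Polg2. Of 7 melanocyte markers, the pigment enzyme gene Tyr had no count in any culture. Mitf, of the same list, had means of 17.3 CPM in control cells and 12.4 CPM in m.11,944 60% cells. The 7 markers summed to 9.77 to 26.9 counts-per-million (CPM) in control cultures and 9.01 to 16.4 CPM in m.11,944 60% cultures. In cultures the summed level of 10 leukocyte markers was at most 3.59 counts-per-million (CPM), and in tumors it was 1038 to 2812 CPM.

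mtDNA is packed into nucleoids by TFAM, a DNA-binding protein that also bends the promoters from which mtDNA is transcribed. Transcription needs the single-subunit RNA polymerase POLRMT with TFB2M, and TEFM keeps the polymerase elongating, whereas replication uses the helicase TWNK, the polymerase POLG with its accessory subunit POLG2, and the single-strand binding protein SSBP1. TFB1M is a methyltransferase of the small mitochondrial ribosomal RNA, and MGME1 is a nuclease that trims DNA ends during replication. These proteins are encoded in the nucleus, and nuclear respiratory factor 1 (NRF1) and the ETS-family factor GABP are known to act on promoters of several such genes.

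The factors lie on 8 chromosomes of GRCm39, where Tefm shares one with Polg2 and Tfam one with Polrmt, far apart. Tfam (ENSMUSG00000003923) spans chr10:71061287-71074110 on the minus strand and Polrmt (ENSMUSG00000020329) chr10:79571957-79582420. Tefm (ENSMUSG00000046909) spans chr11:80027498-80033839 and Polg2 (ENSMUSG00000020718) chr11:106658823-106670384. Twnk (ENSMUSG00000025209) lies at chr19:44994102-45001204, Polg (ENSMUSG00000039176) at chr7:79095974-79116110, Ssbp1 (ENSMUSG00000029911) at chr6:40448286-40524298 and Mgme1 (ENSMUSG00000027424) at chr2:144112027-144123149. Tfb1m (ENSMUSG00000036983) lies at chr17:3563847-3608190 and Tfb2m (ENSMUSG00000026492) at chr1:179355610-179374548.

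Reads of some factors could be shared with other genes. Of the exon bases of the canonical Tfb1m transcript, 65.9% lie in exons of Tiam2 or 1700102H20Rik, and strand use in the counting is not given in the sources used here, so Tfb1m values are uncertain. For Tfb2m, 57.5% of the 100-base windows of the transcript occur elsewhere in the genome, and its counts may lack reads that fit several places. The overlap was 8.48% of bases for Polg (with Fanci), 9.44% for Tfb2m (with Cnst), 7.55% for Mgme1 (with Snx5) and 1.16% for Tefm. Tfam, Polrmt, Twnk and Polg2 had neither overlapping exons nor windows found elsewhere.

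Promoter sequences of all 10 factors were read from RefSeq (GRCm38.p6, 250 bases before to 50 after the annotated start) and searched on both strands for the GABP-type ETS motif CCGGAAGT and the NRF1 motif GCGCATGC. The ETS motif was found in 4 factors (Polg, Twnk, Tfam and Tefm), and 3.89% of the 32817 promoters of this length in the table hold it. The NRF1 motif was found in Polrmt and Tfb2m and in 2.71% of the promoters. The 30 bases around each motif are shown because these 6 genes include both directions of change between tumors and cultures described below. Each is read along the gene's own strand, with the motif in capitals:
Tfam: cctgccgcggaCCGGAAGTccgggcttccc
Tefm: agcacacgaaaCCGGAAGTtgaggaggaac
Polg: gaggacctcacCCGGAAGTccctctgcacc
Twnk: actaaccggtgACTTCCGGttccggggttg
Polrmt: agagtatttctGCGCATGCtctcttgccgc
Tfb2m: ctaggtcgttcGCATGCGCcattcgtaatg

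The Tfam stretch lies at chr10:71238073-71238102 and its motif begins 47 bases before the annotated start. The Tefm stretch lies at chr11:80142144-80142173, with the motif 9 bases before the start, and the Polg stretch at chr7:79466293-79466322, with the motif 38 bases before. The Twnk stretch lies at chr19:45006436-45006465, 111 bases before the second of its annotated starts and with the motif on the opposite strand. For NRF1, the Polrmt stretch lies at chr10:79746696-79746725 with the motif 133 bases before the start, and the Tfb2m stretch at chr1:179546245-179546274 with the motif 13 bases after it, on the opposite strand. Searching other letters could give other genes, the motifs do not overlap one another, and a match is a description of letters that shows no binding.

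Levels per kilobase of the canonical transcript placed the factors over a wide range. In control cells the highest were Polrmt at 17.5 ± 1.69 and Tfam at 17.3 ± 1.93 CPM per kb (SD, n = 4), which do not differ beyond their spread, followed by Twnk at 15.6 ± 0.733 and Tfb2m at 14.2 ± 3.52. Ssbp1 was at 10.3 ± 1.34, Mgme1 at 7.19 ± 0.887, Tefm at 6.54 ± 0.388 and Polg at 6.39 ± 0.921 CPM per kb. The order depends on the lengths used, 4913 bases for Ssbp1 and 7842 for Polg. Without division by length these 2 genes were alike in control cells, with means of 50.7 and 50.1 CPM. The accessory subunit Polg2 at 3.62 ± 0.583 and Tfb1m at 3.15 ± 0.759 CPM per kb were lowest and lay within each other's spread. In control tumors Polrmt was still highest at 15.3 ± 0.658 CPM per kb, Twnk came next at 12.7 ± 1.83, and Tfam followed at 9.74 ± 0.657, above Tfb2m at 8.07 ± 0.249 and Polg at 7.69 ± 0.286. Tfb1m was lowest there at 1.56 ± 0.0736 CPM per kb.

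**Figure D1:**
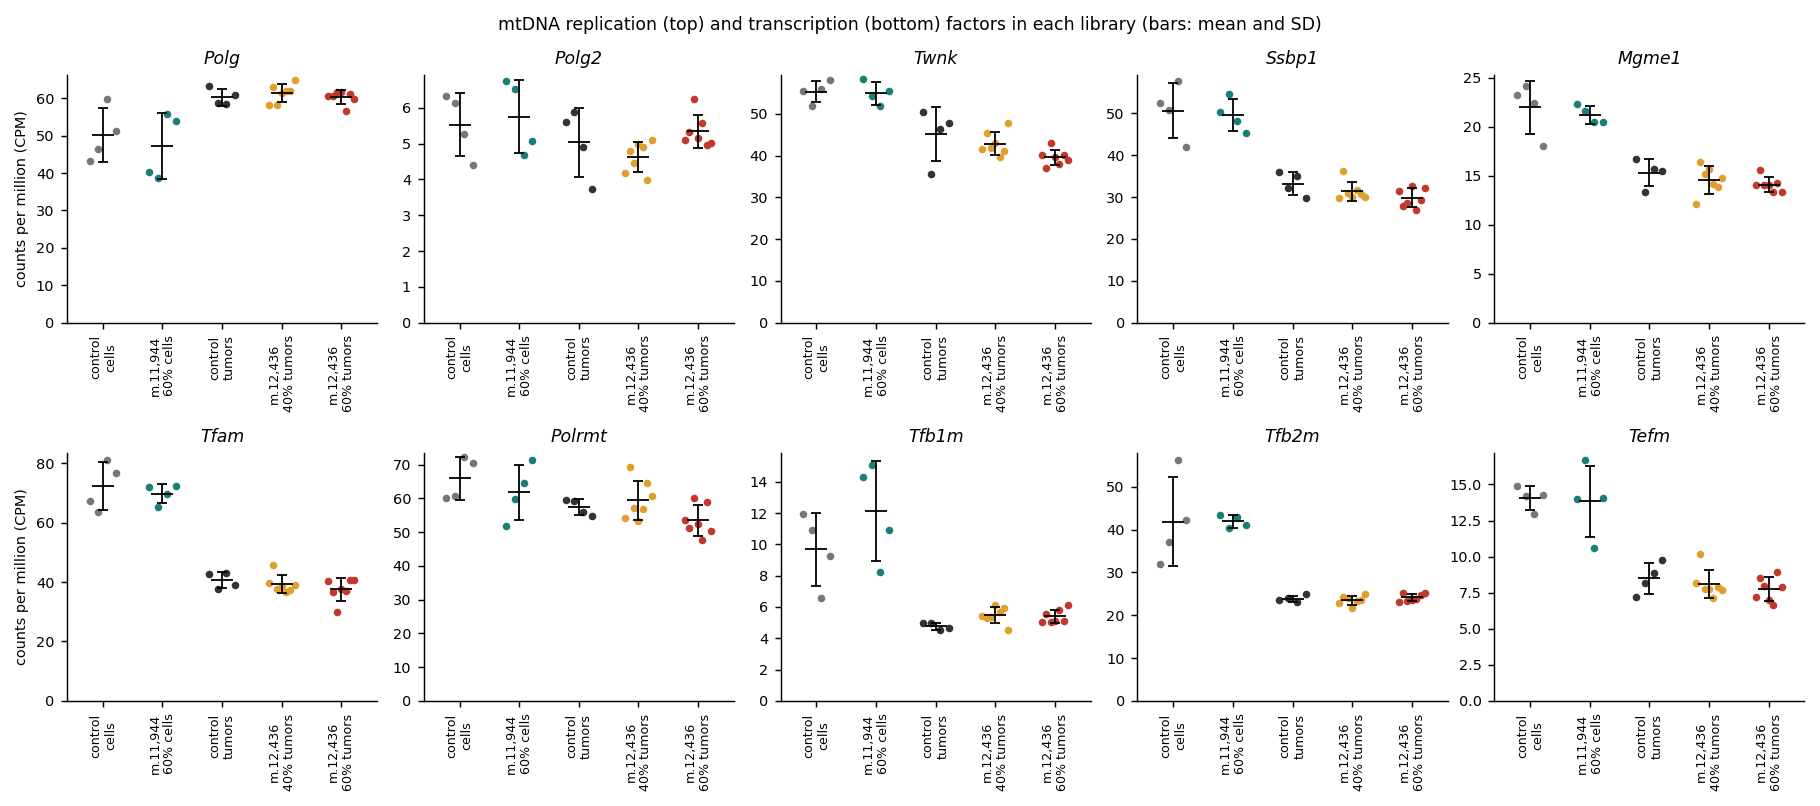
Level of each factor in CPM (y axis, from 0) in every library of the 5 groups (x axis), with replication factors in the top row, transcription factors in the bottom row, 1 point per library and bars for the mean and SD. For 7 factors, Tfam among them, the 8 cultures sit above the 18 tumors, while Polg, Polg2 and Polrmt overlap between cultures and tumors.

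The first comparison asked whether truncating Mt-Nd5 in cultured cells came with a change in the factors. None of the 10 passed an adjusted p of 0.1 in edgeR's quasi-likelihood test, where 5 of 12930 genes did, or 0.0387%. At an unadjusted p under 0.05 the count was also 0, beside 4.11% of all genes, and limma-voom and DESeq2 called 0 factors. Tfam in CPM was 71.9, 65.2, 69.7 and 72.2 in the m.11,944 60% cultures and 67.4, 63.6, 80.9 and 76.8 in the control cultures. The groups overlapped, with a log2 fold change of -0.02 (SE 0.11). The replication factors lay between -0.06 for Polg and 0.09 for Polg2 on the log2 scale, and Polrmt, Tfb2m and Tefm between -0.06 and 0.03.

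Tfb1m was the factor with the largest difference between these cultures. It measured 14.3, 15.1, 8.22 and 10.9 CPM in the m.11,944 60% cultures 1 to 4, and 11.9, 10.9, 6.59 and 9.25 CPM in the control cultures of the same numbers. Each mutant culture was above the control culture with its number, although the groups overlapped. The log2 fold change was 0.36 (SE 0.25, adjusted p = 1.00 in edgeR's quasi-likelihood test). With the culture number as a block, since cultures of the same number deviated together, it was 0.35 (SE 0.10, adjusted p = 0.0982), and Tfb1m was then the 1 factor of 10 past the threshold. That fit called 390 of 12930 genes higher, or 3.02%. Deviations of cultures with different numbers also correlated at up to 0.81, so pairing number by number is not shown. Tiam2, whose exons overlap those of Tfb1m, had a log2 fold change of 0.08 (SE 0.21) without the block.

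Cultures 1 and 2 differed from cultures 3 and 4 in both lines, a division seen in the data and not given by the labels. In both lines Polg and Polrmt were higher in cultures 3 and 4 than in cultures 1 and 2. Polg measured 43.1 and 46.4 against 59.8 and 51.2 CPM in control cells, and 40.2 and 38.8 against 55.8 and 53.97 CPM in m.11,944 60% cells. Mgme1, Polg2 and Tfb1m were lower in cultures 3 and 4 of both lines, and the other 5 factors had no common order. The share of all genes with such an order was not computed. In cultures 1 to 4 the 6 proliferation markers summed to 1471, 1481, 2654 and 2315 CPM in control cells. In m.11,944 60% cells these sums were 1549, 1533, 2702 and 2431 CPM. Their part in the values of the factors was not tested.

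**Figure D2:**
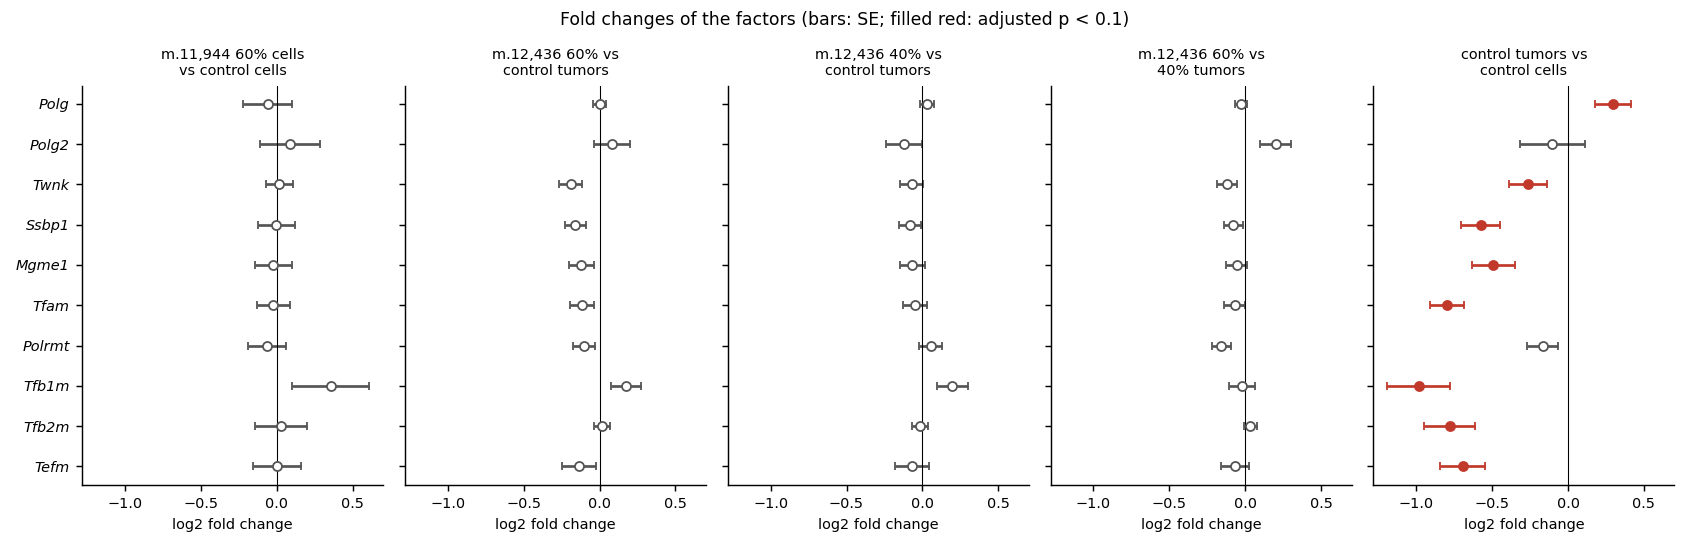
Log2 fold change of each factor (x axis) in the 5 comparisons (panels), with SE bars and filled red points for an adjusted p under 0.1 in edgeR's quasi-likelihood test. Red points appear in the comparison of control tumors with control cells alone, 7 to the left of 0 and Polg to the right at 0.30.

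In tumors the comparison by heteroplasmy asked whether the factors followed the m.12,436G>A load. At 60% none of the 10 passed an adjusted p of 0.1 against control tumors (edgeR's quasi-likelihood test), where 374 of 16213 genes did, or 2.31%, a background that ranged from 66 genes without control tumor 3 to 724 without control tumor 4 and was 1056 with DESeq2. With limma-voom and DESeq2, 0 factors were called as well. Unadjusted p values under 0.05 were found for 2 of 10, the helicase Twnk and Ssbp1, beside 16.3% of all genes. Twnk measured 50.4, 35.7, 46.4 and 47.8 CPM in the control tumors, and from 37.1 to 43.0 CPM with a median of 39.7 in the 7 tumors at 60%. Control tumor 2 alone lay below the 60% tumors, and the other 3 lay above all of them. The log2 fold change was -0.19 (SE 0.08, adjusted p = 0.221 in edgeR's quasi-likelihood test). Without control tumor 2 it was -0.28 (SE 0.06, adjusted p = 0.0370), so this library decided the call. That tumor also had the highest share of mtDNA-encoded counts of the 18 (1.48%).

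Ssbp1, which coats single-stranded mtDNA, measured 35.96, 32.2, 35.1 and 29.7 CPM in control tumors and 26.8 to 32.6 CPM, with a median of 29.2, in the 60% tumors. The groups overlapped, with a log2 fold change of -0.16 (SE 0.07, adjusted p = 0.274 in edgeR's quasi-likelihood test). Tfam measured 42.9, 37.6, 43.1 and 39.1 CPM in control tumors and 29.9 to 40.6 CPM, with a median of 37.6, in the 60% tumors (log2 fold change -0.12, SE 0.08, adjusted p = 0.478). One 60% tumor stood apart at the low end for Tfam, and the remaining 6 lay between 36.6 and 40.6 CPM.

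Tfb1m was the only factor whose 60% tumors and control tumors did not overlap. It measured 4.96, 4.97, 4.51 and 4.67 CPM in control tumors, and 5.02 to 6.14 CPM with a median of 5.12 in the 60% tumors. Of all 16213 genes, 4.18% did not overlap between these groups. The log2 fold change of Tfb1m was 0.17 (SE 0.10, adjusted p = 0.398 in edgeR's quasi-likelihood test) and that of the overlapping gene Tiam2 was 0.38 (SE 0.10, adjusted p = 0.0693). The part of Tiam2 reads in the Tfb1m counts was not tested. The 6 proliferation markers summed to 823 to 1090 CPM in the 60% tumors and 1019 to 1294 CPM in control tumors, and the 10 leukocyte markers to 1385 to 2812 and 1367 to 1885 CPM, and their part in the values of the factors was not tested.

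At 40% none of the 10 factors passed the threshold against control tumors, none had an unadjusted p under 0.05, and limma-voom and DESeq2 called 0. The background was likewise 0 of 16213 genes, or 0%, with 825 genes (5.09%) at an unadjusted p under 0.05 and 5 called by DESeq2. Log2 fold changes ran from -0.12 for Polg2 to 0.20 for Tfb1m. Tfb1m at 40% was 4.50 to 6.10 CPM with a median of 5.42 and overlapped the control tumors.

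Between 60% and 40% tumors, 0 of 10 factors and 293 of 16213 genes (1.81%) passed the threshold, and 0 factors did so with limma-voom or DESeq2. The RNA polymerase Polrmt, 1 of 10, had an unadjusted p under 0.05, as did 14.1% of all genes. It measured 47.6 to 60.2 CPM with a median of 52.5 at 60%, and 53.4 to 69.3 CPM with a median of 57.2 at 40%. The groups overlapped, with a log2 fold change of -0.16 (SE 0.06, adjusted p = 0.260 in edgeR's quasi-likelihood test). The 10 leukocyte markers summed to 1385 to 2812 CPM (median 1885) at 60% and 1038 to 1749 CPM (median 1552) at 40%. For 5 skeletal muscle markers the sums were 2.15 to 212 CPM (median 2.37) at 60% and 36.8 to 183 CPM (median 108) at 40%. The part of these cells in the values was not tested.

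The order of the 5 group means was the same for Tfam, Tefm, Twnk, Ssbp1 and Mgme1, with both cultures above the tumors and control tumors above those at 40% and 60%. Tfam had means of 72.2 ± 8.05 CPM in control cells, 69.7 ± 3.21 in m.11,944 60% cells, 40.6 ± 2.74 in control tumors, 39.2 ± 3.02 at 40% and 37.5 ± 3.78 at 60% (SD, n = 4, 4, 4, 7 and 7). For Tfam, neighbours in this order lay within 1 SD of each other apart from the step between cultures and tumors. For Twnk the means of 42.9 ± 2.80 CPM at 40% and 39.6 ± 1.85 CPM at 60% (SD, n = 7) lay further apart than either SD. The remaining factors had other orders. Tfb1m, for example, had means of 4.78 CPM in control tumors, 5.47 at 40% and 5.40 at 60%. The order was picked after the values were seen, and the share of all genes with it was not computed.

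The factors differed in how much they varied among the 18 tumors. Polg had a coefficient of variation of 3.45% and Tfb2m of 3.87%, where counting error alone at their mean counts would give 2.50% and 3.98%. Tfam varied by 8.61%, Twnk by 9.61%, Polrmt by 9.25% and Tefm by 11.6%, against counting errors of 3.12%, 3.00%, 2.58% and 6.86%. The weakly expressed Polg2 and Tfb1m varied by 12.6% and 9.53% with counting errors of 8.71% and 8.48%. Across the 18 tumors the strongest correlations of log2 CPM between factors were those of Ssbp1 with Tfam (Pearson's r = 0.67), Polg with Polrmt (0.60) and Twnk with Mgme1 (0.59), and the lowest was that of Twnk with Tfb1m (-0.46), given as descriptions of tumors that differ in cell content. Over all genes the patterns most like Tfam in these tumors were those of Prps2 (r = 0.86), Mrpl42 (0.86) and Zfp365 (0.86).

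Control tumors against control cultures were the comparison in which the factors differed. Tfb1m, Tfam, Tfb2m, Tefm, Ssbp1, Mgme1 and Twnk were lower in tumors and Polg was higher, so that 8 of 10 passed the threshold where 65.2% of 15047 genes did. By direction, 7 of 10 factors were called lower against 29.9% of all genes, and 1 was called higher against 35.3%. The median log2 fold change was -0.26 for the 5 replication factors and -0.78 for the 5 transcription factors, beside 0.04 over all genes tested. In bulk samples fewer cells of a type and less RNA per cell cannot be told apart, and growth in a host and the presence of host cells also cannot be told apart here. Preparation differed with them: per the study's methods tumor pieces were kept in RNAlater, whereas cells were stored as pellets. Its part cannot be told apart either.

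Tfam fell by 0.80 on the log2 scale (SE 0.11, adjusted p = 0.00027 in edgeR's quasi-likelihood test), to a level of 37.6 to 43.1 CPM in the 4 tumors from 63.6 to 80.9 CPM in the 4 cultures. Tfb2m, the initiation partner of the polymerase, measured 23.5, 24.0, 23.2 and 24.8 CPM in tumors and 32.01, 37.1, 56.2 and 42.2 CPM in cultures, a log2 fold change of -0.78 (SE 0.17, adjusted p = 0.00331). The elongation factor Tefm measured 7.20, 8.18, 8.90 and 9.73 CPM in tumors and 14.9, 14.2, 12.9 and 14.3 CPM in cultures (log2 fold change -0.69, SE 0.15, adjusted p = 0.00281). For these 3 factors no tumor reached the lowest culture, and for 8 of 10 factors every control tumor lay below every control culture, beside 25.7% of all genes.

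Tfb1m fell by 0.98 on the log2 scale (SE 0.21, adjusted p = 0.00280 in edgeR's quasi-likelihood test), with tumors at 4.51 to 4.97 CPM and cultures at 6.59 to 11.9 CPM. Its overlapping gene Tiam2 had a log2 fold change of -0.37 (SE 0.20, adjusted p = 0.139). The polymerase Polrmt differed less: it measured 59.7, 59.4, 55.9 and 54.8 CPM in tumors and 60.1, 60.8, 72.2 and 70.6 CPM in cultures. Its groups did not overlap by a narrow margin, and the log2 fold change of -0.17 (SE 0.10, adjusted p = 0.190) missed the threshold.

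Among replication factors, Ssbp1 fell by 0.58 on the log2 scale (SE 0.13, adjusted p = 0.00358 in edgeR's quasi-likelihood test), from 52.4, 50.7, 57.7 and 41.9 CPM in cultures to 29.7 to 35.96 CPM in tumors. The nuclease Mgme1 fell by 0.49 (SE 0.14, adjusted p = 0.0137), from 23.3, 24.2, 22.5 and 18.1 CPM to 13.4 to 16.7 CPM. Neither gene overlapped between the groups. Twnk fell by 0.26 (SE 0.12, adjusted p = 0.0949), from 51.8 to 58.1 CPM in cultures to 35.7 to 50.4 CPM in tumors. This call was lost in 11 of 17 alternatives, among them without control tumor 2 (log2 fold change -0.19, adjusted p = 0.180).

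The catalytic polymerase Polg ran the other way. It measured 63.2, 58.6, 58.4 and 60.8 CPM in tumors and 43.1, 46.4, 59.8 and 51.2 CPM in cultures, where culture 3 overlapped the tumors. The log2 fold change was 0.30 (SE 0.12, adjusted p = 0.0548 in edgeR's quasi-likelihood test), and 8 of 17 alternatives lost the call, among them without control culture 1 (0.22, adjusted p = 0.160) or control culture 2 (0.25, adjusted p = 0.140), and without any 1 of the 4 control tumors. Fanci, which shares exon bases with Polg, had a log2 fold change of -0.90 (SE 0.36, adjusted p = 0.0582). The accessory subunit Polg2 measured 5.59, 5.88, 4.91 and 3.74 CPM in tumors and 6.33, 6.15, 5.27 and 4.39 CPM in cultures (log2 fold change -0.10, SE 0.21, adjusted p = 0.698).

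Directions in this comparison depended on the scaling for the weakest differences. With total counts in place of TMM the median of all genes rose from 0.04 to 0.34 on the log2 scale, and the genes called higher and lower went from 5309 and 4497 to 6871 and 2604. On that scale Polg2 (0.20), Twnk (0.03) and Polrmt (0.13) changed sign, all 3 still below the median of all genes, and Mgme1 lost its call (-0.19, adjusted p = 0.251 in edgeR's quasi-likelihood test). Tfam, Tfb1m, Tfb2m, Tefm and Ssbp1 stayed lower and past the threshold in all 17 alternatives.

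The same 7 factors also separated all 8 cultures from all 18 tumors, mutants included: each culture was above each tumor for Tfam, Tfb1m, Tfb2m, Tefm, Ssbp1, Mgme1 and Twnk. Of the 15047 genes, 17.6% had every culture above every tumor. The margin was wide for Tfam, with 63.6 CPM in the lowest culture and 45.7 CPM in the highest tumor, and narrow for Tefm, with 10.6 and 10.2 CPM.

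Markers of cell types moved with this comparison. The summed level of 5 fibroblast markers was 653 to 1823 CPM in control cultures and 9405 to 10638 CPM in control tumors. In control cultures this sum was mostly Col3a1 (mean 1479 CPM), beside 1.32 CPM for Col1a1 and 1.51 CPM for Col1a2. The mean of Col3a1 in control tumors was 7084 CPM. The cultured line thus made Col3a1 itself, and the sum is not specific to host cells. The 10 leukocyte markers summed to 1.09 to 2.43 CPM in control cultures, where 6 of them, Ptprc among them, had no count, and to 1367 to 1885 CPM in control tumors. The 6 proliferation markers summed to 1471 to 2654 CPM in control cultures and 1019 to 1294 CPM in control tumors, and 5 of them were called lower, such as Mcm2 at -1.20 (SE 0.10). Their part in the fall of the factors was not tested.

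**Figure D3:**
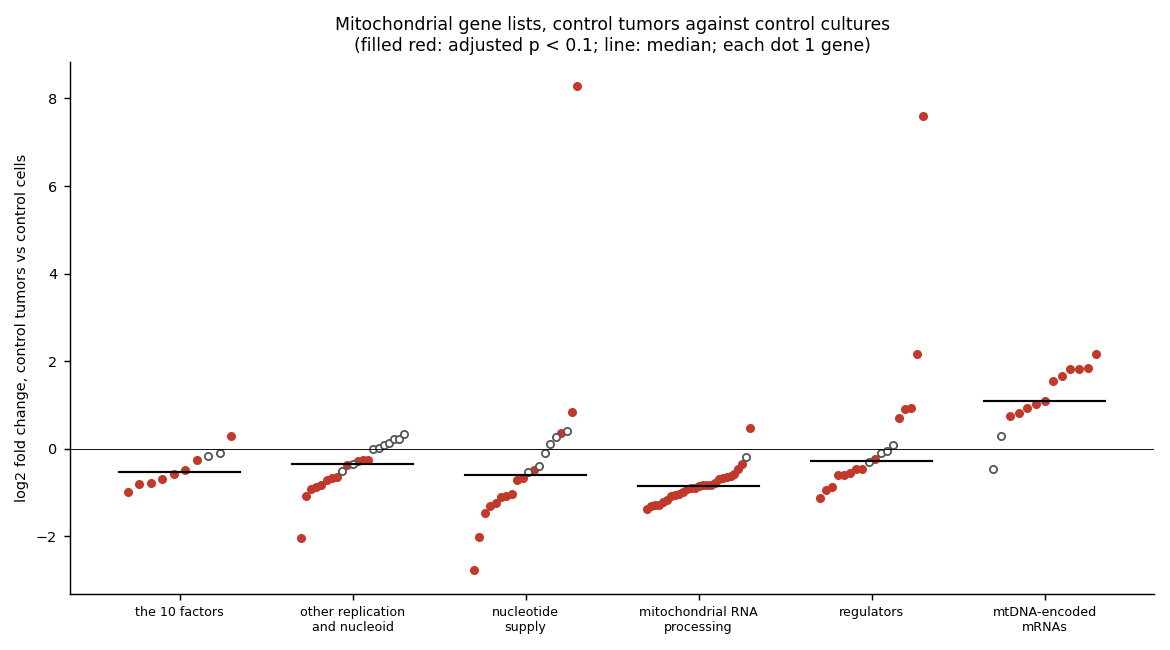
Log2 fold change between control tumors and control cells (y axis) for each gene of 6 lists (x axis), with 1 dot per gene, red where the adjusted p was under 0.1, and a line at the list's median. The 10 factors and the RNA processing genes lie mostly below 0, whereas 12 of the 13 mtDNA-encoded mRNAs lie above it.

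Other nuclear genes that serve mtDNA were described by lists, whose counts stand against 29.9% of all genes called lower and 35.3% called higher in this comparison. Of 27 genes for processing and turnover of mitochondrial RNA, 25 were lower in control tumors than in control cells and 1 was higher, with a median log2 fold change of -0.84. The largest falls were those of the ribosomal protein gene Mrpl12 (-1.37, SE 0.15) and the RNA granule proteins Fastkd2 (-1.31, SE 0.16) and Fastkd5 (-1.28, SE 0.36). Fastk rose by 0.47 (SE 0.13). Of 21 other replication and nucleoid genes tested, 12 were lower and 0 higher, with a median of -0.35. Here the matrix protease Lonp1 (-2.03, SE 0.51), the oxidised guanine glycosylase Ogg1 (-1.07, SE 0.27) and the mitochondrial topoisomerase Top1mt (-0.92, SE 0.23) fell most.

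Of 20 genes tested for nucleotide supply, 11 were lower and 3 higher, with a median of -0.60. The pyrimidine carrier Slc25a33 (-2.76, SE 0.42), Dut (-2.02, SE 0.17) and the ribonucleotide reductase subunit Rrm2 (-1.47, SE 0.51) fell most. The mitochondrial deoxyguanosine kinase Dguok rose by 0.84 (SE 0.15) and Mpv17 by 0.36 (SE 0.10). Cmpk2, an interferon-inducible nucleotide kinase, had 6 counts in all control cultures together and was at 12.4 to 30.1 CPM in control tumors.

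Of 18 regulators tested, 9 were lower and 5 higher, with a median of -0.27. Nrf1 fell by 0.86 on the log2 scale (SE 0.13), and the GABP subunits Gabpb1 and Gabpa by 0.95 (SE 0.15) and 0.59 (SE 0.10). The third GABP subunit in the list, Gabpb2, went the other way and rose by 0.70 (SE 0.19). The growth factor-responsive regulator Myc had a log2 fold change of -1.13 (SE 0.49, adjusted p = 0.0709 in edgeR's quasi-likelihood test). The lysosomal regulator Tfeb rose by 2.17 (SE 0.34) and the coactivator Ppargc1b by 0.93 (SE 0.28). Mycn had 0 counts in the 4 control cultures and a mean of 0.891 CPM in control tumors, at least 30.7-fold higher against a floor of 3 counts over the group, and the list's median is the same with Mycn at this bound. Ppargc1a had too few counts to be tested.

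In the comparisons of mutants with controls few genes of these lists passed the threshold. In cells 0 of their 84 tested genes passed the threshold (edgeR's quasi-likelihood test), 1 had an unadjusted p under 0.05 (4.11% of all genes), and with the culture number as a block the tRNA-processing gene Trmt10c (-0.51, adjusted p = 0.0344) and Myc (-0.61, adjusted p = 0.0344) were lower, 2 of 84, where 4.09% of all genes were. In 60% tumors, of 86 tested with 12 at an unadjusted p under 0.05 (16.3% of all genes), the adenine nucleotide carrier Slc25a4 alone was lower than in control tumors (-0.23, SE 0.06, adjusted p = 0.0704). Over all genes 2.31% passed the threshold there. With the replicate block Slc25a4 did not pass (adjusted p = 0.200 in edgeR's quasi-likelihood test), and 0 of the 86 did. In 40% tumors, and between 60% and 40% tumors, 0 of 86 passed, with 6 and 7 at an unadjusted p under 0.05 (5.09% and 14.1% of all genes).

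The share of counts on the 13 mtDNA-encoded mRNAs was the measure set beside the factors. It was 0.317%, 0.362%, 0.770% and 0.403% in m.11,944 60% cultures and 0.269%, 0.298%, 0.552% and 0.338% in control cultures. Culture 3 was highest in both lines, and the groups overlapped (0.463% ± 0.208 against 0.364% ± 0.129, SD, n = 4; exact permutation test without pairing, two-sided, p = 0.486). In 4 of 4 pairs of the same number the mutant culture was higher, by 0.0987 ± 0.0799 percentage points (SD over pairs; exact paired permutation test, two-sided, p = 0.125, the smallest that 4 pairs can give). With the culture number as a block, 5 of the 13 mRNAs were called higher in m.11,944 60% cells, such as mt-Co1 (0.30, adjusted p = 0.0591 in edgeR's quasi-likelihood test), and 0 without it. Over all genes the blocked fit called 3.02% higher.

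In tumors the share was 1.28% ± 0.141 in controls (n = 4), 1.25% ± 0.175 at 40% (n = 7) and 1.26% ± 0.128 at 60% (n = 7). Exact permutation tests gave p = 0.833 for 40% and p = 0.906 for 60% against controls, and p = 0.905 between 60% and 40%. The 3 groups overlapped throughout.

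Control tumors had a share 3.50 times that of control cultures, with 1.16% to 1.48% in tumors and 0.269% to 0.552% in cultures (exact permutation test, p = 0.0286, the smallest that 4 against 4 can give). Relative to TMM-scaled library sizes the ratio was 2.78. Of the 13 mRNAs 11 were called higher, and among the 6 with under 50% of their 100-base windows in nuclear copies, the log2 fold changes were 0.94 for mt-Nd1, 1.09 for mt-Nd2, 1.56 for mt-Co1, 1.83 for mt-Nd5, 1.85 for mt-Nd6 and 1.65 for mt-Cytb. The mtDNA-encoded mRNAs were thus higher in the same tumors in which Tfam, Tfb2m and Tefm were lower. The other 7, such as mt-Co2 and mt-Nd4, are less certain, with 60.8% to 100% of their windows in nuclear copies.

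**Figure D4:**
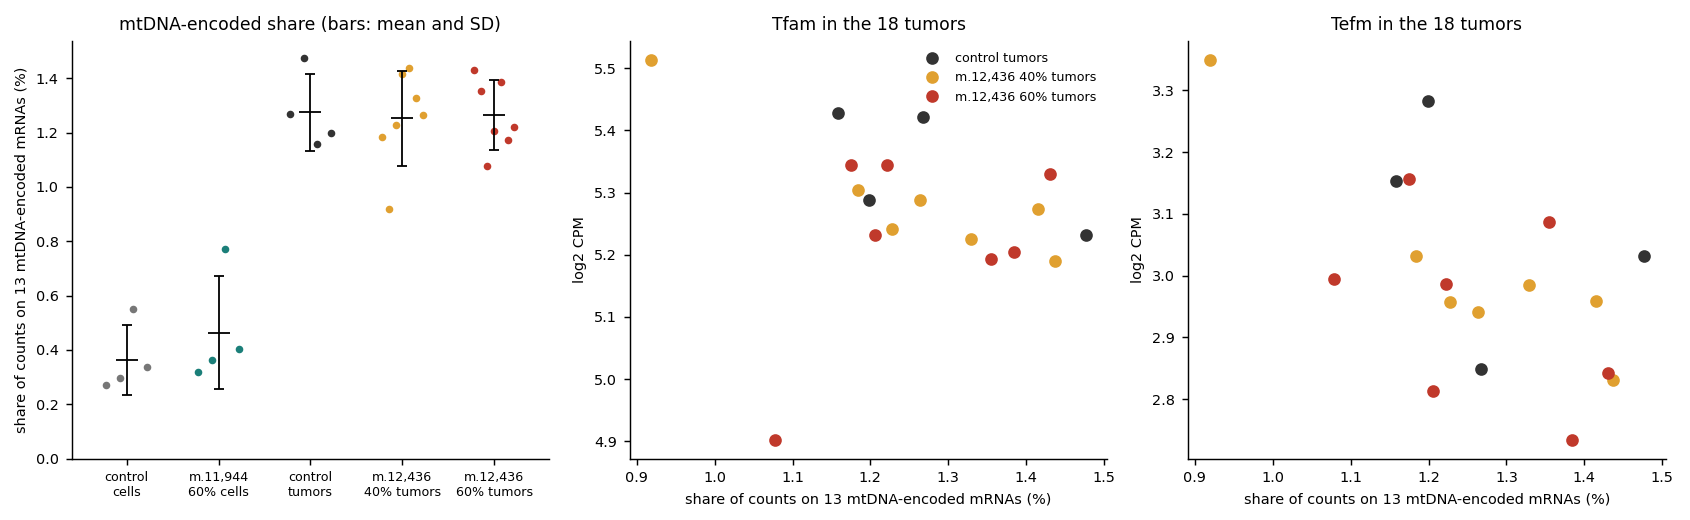
Share of counts on the 13 mtDNA-encoded mRNAs in each library by group (left, in percent, bars for mean and SD), and log2 CPM of Tfam (middle) and Tefm (right) against this share in the 18 tumors, coloured by group. Every tumor has a higher share than every culture, and the tumor with the lowest share, 0.919%, has the highest Tfam and Tefm.

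Within the 18 tumors, Tefm was the 1 factor of 10 whose correlation with the share passed an adjusted p of 0.1. The share of all genes with such a correlation was not computed, so this count has no background. Tefm was lower where the share was higher (Pearson's r = -0.61, permutation p = 0.00759, adjusted p = 0.0759 over the 10 factors). Spearman's rho was -0.55 (permutation p = 0.0185, adjusted p = 0.185). Without the 2 tumors farthest from the median share, control tumor 2 and m.12,436 40% tumor 2, r was -0.51 (permutation p = 0.0414, adjusted p = 0.317) and rho was -0.63 (permutation p = 0.0110, adjusted p = 0.110). Neither value passed an adjusted p of 0.1 without those samples. Within the 40% tumors r was -0.92 (n = 7, exact permutation p = 0.00754, adjusted p = 0.0754) but rho was -0.71 (exact permutation p = 0.0881, adjusted p = 0.440), and within the 60% tumors -0.44 (n = 7, exact permutation p = 0.309). The 4 control tumors were too few for such a value. For Tfam r was -0.23 (permutation p = 0.352, adjusted p = 0.449) and rho -0.42 (permutation p = 0.0831), and within the 40% tumors r was -0.91 (n = 7, exact permutation p = 0.0155, adjusted p = 0.0774) and rho -0.82 (exact permutation p = 0.0341, adjusted p = 0.341). The sign of r for Tfam was positive within the 60% tumors (r = 0.47, rho = 0.07, exact permutation p = 0.303 for r). Without the 2 farthest tumors r was 0.11 (permutation p = 0.714) and rho -0.30. In both relations m.12,436 40% tumor 2, with the lowest share and the highest Tefm and Tfam, lay far from the rest. The remaining 8 factors had r from -0.48 for Twnk to 0.28 for Tfb1m, with adjusted permutation p values of at least 0.206.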

How the data were processed

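RNA was sequenced from the 8 cultures and 18 tumors used here. Per the study's methods, STAR alignment to GRCm39 was followed by counting with featureCounts on an Ensembl annotation, and the authors deposited raw counts for 56748 genes. Samples were assigned to 26 columns by inference from the column names, the numbering in the titles and headings of the study's source data. The remaining 21 were left out because no source ties them to a sample, and with them m.11,944 tumors, m.12,436 60% cells and further control tumors. The tests used edgeR 4.0.16 in R 4.3.3 (filterByExpr, TMM, robust quasi-likelihood test, Benjamini-Hochberg adjustment over all genes, threshold 0.1). Cultures, tumors, and control tumors with control cultures were each fitted together. CPM values use TMM factors over all 26 libraries, and levels per kb use canonical transcript lengths of GENCODE for GRCm39, which held 56017 of the genes.

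Shares were compared by exact permutation, and correlations by 100000 permutations (all of them for 7 tumors). All p values are two-sided. Alternatives were limma-voom (limma 3.58.1), DESeq2 1.42.0 and its size factors, other filters, a fit of 2 groups alone, the replicate number blocked, 1 surrogate variable (sva 3.50.0), an adjusted p of 0.05, leaving out each sample and, chosen after seeing the data, total counts and a paired test of the share in cultures. Deviations from group means of same-numbered cultures correlated at 0.72 to 0.83, and those of cultures with different numbers at up to 0.81 (mean -0.26). The cultures are thus not shown to be paired number by number, and tumors of the same number did not deviate together. The fits were tested on simulated counts.

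The factors and lists were chosen with earlier results of these data known. All 10 factors are named, with at most 3 of the largest rises and falls of each list and the 3 genes most correlated with Tfam. Gabpa, Gabpb2, Mcm2, Ppargc1a and genes sharing exons were named after their values were seen. Promoter sequences come from RefSeq, GRCm38.p6.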

Additional observations from a re-analysis of the deposited data

Results flagged for a closer look

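In 6 of 55 sets of values (a factor or the mtDNA-encoded share in 1 group) the extreme sample stood apart by Dixon's criterion, where chance gives about 1 in 20. Among the 40% tumors, tumor 2 was the highest for Tfam (45.7 CPM, next 39.5), Ssbp1 (36.1, next 31.8) and Tefm (10.2, next 8.18), and it had the lowest mtDNA-encoded share of the 18 tumors (0.919%). Its 5 fibroblast markers summed to 7317 CPM, the lowest of the 40% tumors, its leukocyte markers to 1038 CPM, also the lowest, and its proliferation markers to 1224 CPM, the highest, and their part was not tested. The fibroblast sum includes Col3a1, which the cultured line also made.

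Among the 60% tumors, tumor 3 was the lowest for Tfam (29.9 CPM, next 36.6), and tumor 5 the lowest for Polg (56.6 CPM, next 59.8). Tumor 2 was the highest for Mgme1 (15.6 CPM, next 14.2).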

How the results depend on the processing

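Gene counts past the threshold moved more than the factors. In cells the 5 calls became 84 with DESeq2, 0 with at least 10 counts in every sample, 919 with the replicate block and 783 with 1 surrogate variable, and 0 to 0 when a culture was left out. With the block 1 factor, Tfb1m, was called. At 60% against control tumors the 374 calls became 150 at an adjusted p of 0.05, 1056 with DESeq2, 178 with the replicate block and 943 with only the 2 groups, and ranged from 66 without control tumor 3 to 724 without control tumor 4 when a tumor was left out, with 0 to 1 factors called. At 40% the count of 0 became 5 with DESeq2 and 0 to 4 when a tumor was left out. Between 60% and 40% the 293 calls became 113 at an adjusted p of 0.05, 744 with DESeq2, 178 with no filter on low counts and 759 with 1 surrogate variable, and 108 to 452 when a tumor was left out. The cause was not tested.

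Between control tumors and control cells 8921 to 10530 genes and 6 to 7 factors were called when a sample was left out. Polg2 (0.20), Twnk (0.032) and Polrmt (0.13) reversed with total counts. With the replicate block, Twnk had an adjusted p of 0.103 in edgeR's quasi-likelihood test; tumor numbers paired nothing (mean correlations -0.16, -0.00 and -0.03), and the block changed no other factor's call.

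Differences of the mtDNA-encoded share, in percentage points, changed sign when a sample was left out. They ranged from -0.00380 to 0.161 in cells, -0.0499 to 0.0561 at 60%, -0.0607 to 0.0453 at 40% and -0.0450 to 0.0418 between them. In cells, leaving out a culture kept the culture of the same number in the other group. The differences between cultures of the same number were all above 0, from 0.0477 to 0.218. Pairing the cultures, a test added after seeing the data, left the difference in cells at 0.0987 (exact paired permutation test, p = 0.125). Correlations past the threshold numbered 1 over the 18 tumors, 0 without the 2 farthest tumors, 0 within 60% and 2 within 40% tumors.

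The lowest counts were those of Polg2 and Tfb1m, whose counting error in tumors was 8.71% and 8.48%, so depth limits the precision of these values most. What differences this depth can show was not tested.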
